A study of Mus musculus with 8 samples.

Results

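Genomic imprinting was followed here through 40 listed mouse genes, of which 39 had at least 1 probe on the array among 34963 gene names in all. Members were chosen by their name in the scanner files, and the name left without a probe, Zac1, is an older symbol of Plagl1, which is itself a member. The 39 genes were read by 72 probes, with 1 probe for 18 genes and several for 21. By the parental copy from which they are usually transcribed, 22 of the listed names are paternal and 15 maternal. Another 2, Gnas and Grb10, use different copies in different transcripts or tissues. The remaining member, Ascl4, a basic helix-loop-helix factor, has no known imprint, so it was kept in the counts over all members and left out of both parental groups.

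An imprinted gene is transcribed mainly from the copy inherited from a single parent, because DNA methylation set in the egg or sperm marks a control region of the cluster. Many imprinted genes act on growth. Paternally expressed Igf2 encodes a growth factor, while maternally expressed Cdkn1c and Igf2r, and also Grb10, restrain the cell cycle or growth factor signalling. Several are imprinted only in placenta or brain. The array reads the total transcript and not its parental copy, so no value here measures imprinting itself.

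The mice were of mixed C57BL/6 and 129 background and either Cdx1+/+ or Cdx1-/-, by genotype at the gene for the intestinal homeobox factor Cdx1. Medullary thymic epithelial cells (mTEC), known for transcribing many genes of other tissues, were sorted as Epcam+ UEA1+ CD45- Fluorogold- CD80hi MHCIIhi cells. Each mTEC sample pooled 4 to 6 thymi, with 3 samples per genotype. Small intestinal epithelial cells (SIEC) were pooled from 3 mice per sample, with 1 sample labelled Cdx1+/+ and 1 labelled Cdx1-/-. Ages, sexes and the part of Cdx1 that was deleted are not given in the sources used here.

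All levels below are log2 intensities relative to the 75th percentile of their own array, so a level of 0 lies at that percentile, and levels of different probes cannot be set against each other. A probe counts as detected where the scanner software called it well above background. On the mTEC arrays 58.6% to 63.5% of spots were detected, against 46.3% and 44.6% on the SIEC arrays, and no spot was saturated. In mTEC, Cdx1 fell by 0.98 on the log2 scale in the samples labelled Cdx1-/- (SE 0.09, n = 3 per genotype, limma adjusted p = 0.00326). In SIEC the Cdx1 probe stood at 5.13 for the sample labelled Cdx1+/+ and at 6.73 for that labelled Cdx1-/-, the opposite of the labels, so SIEC genotypes are given as labelled only. All 12 mature mTEC markers were detected on every mTEC array and all 9 enterocyte markers on both SIEC arrays.

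Of the 39 genes, 36 were detected in mTEC and entered the test between genotypes. Zim1, a zinc finger gene, and the retrotransposon-derived genes Peg10 and Rtl1 were detected on no array of either tissue. Between 32 and 36 of the members were detected per mTEC array, and 19 and 21 on the SIEC arrays.

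In Cdx1-/- against Cdx1+/+ mTEC, 6 of the 36 genes passed the test, 2 higher and 4 lower, and 30 did not. Slc22a3, H19, Grb10 and Magel2 fell, while Snrpn and Kcnq1 rose. Over all 24338 genes tested 13% passed, 6.40% higher and 6.62% lower, against 16.7% of these 36, so the count stood near the background. The median difference of the 36 genes was -0.08 on the log2 scale, against 0.01 over all genes. At an unadjusted p under 0.05 there were 12 of the 36 (33.3%), against 31.2% of all genes. The genotypes did not overlap on any array for 15 of the 36, or 41.7%, against 38.3% of all genes, with 11 of the 15 lower in Cdx1-/-. P-values measure the spread between pooled samples.

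Few genes passed in either parental group. Of 19 paternally expressed genes tested, Snrpn rose and Magel2 fell, with a median difference over the 19 of -0.01. Of 14 maternally expressed genes tested, Kcnq1 rose and H19 and Slc22a3 fell, with a median of -0.06. Kcnq1 passed under only 2 of 15 alternative analyses. With the replicate number as a block it missed the threshold (limma adjusted p = 0.0585) and Phlda2 passed, so that the 3 maternally expressed genes then called, H19, Slc22a3 and Phlda2, were all lower. The other 30 genes lay between -1.12 and 0.34, and 21 of these 30 were under 0.25 in size.

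**Figure D1:**
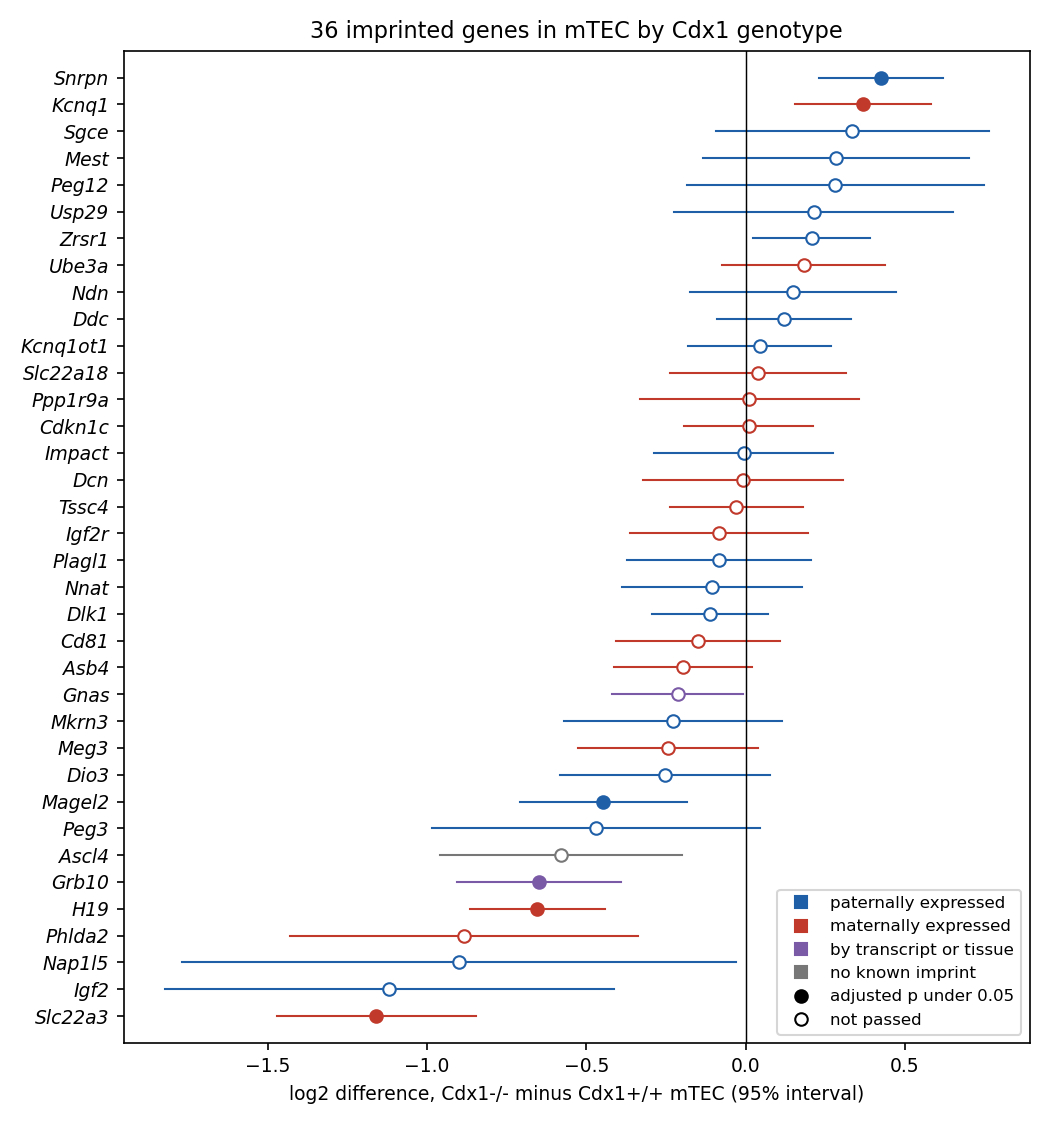
Differences of the 36 imprinted genes between Cdx1-/- and Cdx1+/+ mTEC on the log2 scale, with 95% intervals from limma (n = 3 arrays per genotype), coloured by the parental copy usually expressed. Filled points mark the 6 genes with an adjusted p under 0.05, and the other 30 lie between -1.12 and 0.34.

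H19, the maternally expressed noncoding RNA beside Igf2, fell in Cdx1-/- mTEC. Its brightest probe read 3.56, 3.72 and 3.55 on the Cdx1+/+ arrays and 2.99, 2.99 and 2.89 on the Cdx1-/- arrays. Every Cdx1-/- array lay below every Cdx1+/+ array. The difference was -0.65 (SE 0.09, n = 3 per genotype, limma adjusted p = 0.00879), or 1.57-fold.

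The array carries 7 probes along H19, which let the change be read repeatedly within the same RNA. The files place them on the minus strand of chromosome 7, build mm9, between 149761492 and 149762476. Of their 60-base sequences, 4 follow, 5′ to 3′, from the brightest probe at the 3′ end to the most 5′ probe, to show which stretches were read.
H19 probe at chr7:149761492-149761551: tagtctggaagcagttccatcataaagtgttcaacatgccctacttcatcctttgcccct
H19 probe at chr7:149761693-149761752: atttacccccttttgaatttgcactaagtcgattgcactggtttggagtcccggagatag
H19 probe at chr7:149762173-149762232: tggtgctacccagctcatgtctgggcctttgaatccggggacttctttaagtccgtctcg
H19 probe at chr7:149762417-149762476: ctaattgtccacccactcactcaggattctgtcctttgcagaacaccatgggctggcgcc

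Of the 7 probes 6 were detected on all mTEC arrays, and each was lower in Cdx1-/-. From the brightest probe towards the 5′ end their log2 differences were -0.65, -0.85, -0.74, -0.65, -0.40 and -0.37. Fitted probe by probe among all detected probes, an alternative chosen after seeing the data, 5 of the 6 passed, and the probe with -0.40 missed the threshold (limma adjusted p = 0.0695). The most 5′ probe was detected on no array and gives no measurement. These probes share the same RNA and samples, so they are repeated readings and not replicates.

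**Figure D2:**
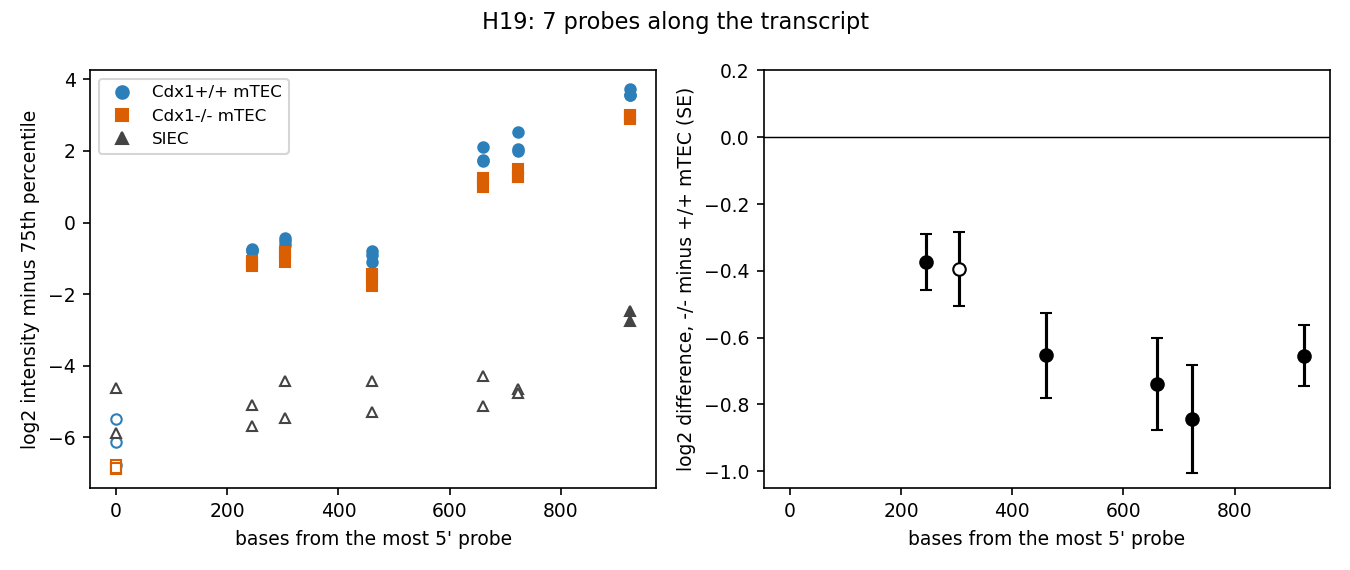
H19 probes placed by their distance in bases from the most 5′ probe. On the left, the log2 level on every mTEC and SIEC array, with open symbols where the probe was not detected on all arrays of the group; on the right, the difference between Cdx1-/- and Cdx1+/+ mTEC with its SE (n = 3 per genotype), filled where the adjusted p was under 0.05. All 6 detected probes lie below 0 on the right.

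Igf2, which encodes the growth factor transcribed from the paternal copy of the same cluster, had a larger difference with a wider spread. It read -1.90, -1.49 and -2.23 in Cdx1+/+ and -3.36, -2.39 and -3.21 in Cdx1-/-. The arrays did not overlap, but Cdx1-/- replicate 2 lay close to the Cdx1+/+ arrays. The difference of -1.12 (SE 0.30, n = 3 per genotype) missed the threshold with a limma adjusted p of 0.0538. With the replicate number as a block Igf2 passed (limma adjusted p = 0.0230), and without Cdx1-/- replicate 2 it also passed, at -1.42 (limma adjusted p = 0.0247).

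Grb10, an adaptor protein that dampens signalling by the insulin and IGF receptors, fell in Cdx1-/-. The probe, at chr11:11833165-11833224 (mm9, minus strand), read -0.94, -1.15 and -1.10 in Cdx1+/+ and -1.86, -1.59 and -1.70 in Cdx1-/-. The groups were apart, with a difference of -0.65 (SE 0.11, n = 3 per genotype, limma adjusted p = 0.0146). Its neighbour Ddc, the decarboxylase that makes dopamine and serotonin, did not pass (difference 0.12, SE 0.09).

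Slc22a3, an organic cation transporter of the Igf2r cluster, was detected in a single genotype. Its probe, at chr17:12613372-12613431 (mm9, minus strand), read -4.20, -4.15 and -4.56 in Cdx1+/+ and was detected on each of those arrays. In Cdx1-/- it read -5.54, -5.36 and -5.48 and was detected on none, so that side is only a bound. From the dimmest detected signals it was at least 1.22-fold lower in Cdx1-/-, while the fitted difference, which takes the signals at background as measured, was -1.16 (SE 0.13, limma adjusted p = 0.00545). With normexp background correction the difference shrank to -0.44 and no longer passed (limma adjusted p = 0.140). Igf2r itself, the receptor that clears IGF2, read 1.50 ± 0.03 (SD, n = 3) in Cdx1+/+ and 1.42 ± 0.20 in Cdx1-/- and did not pass.

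Magel2, a MAGE-family gene of the Snrpn cluster, read 0.39, 0.30 and 0.58 in Cdx1+/+ and -0.11, 0.10 and -0.06 in Cdx1-/-. The arrays were apart, with a difference of -0.45 (SE 0.11, n = 3 per genotype, limma adjusted p = 0.0438). Snrpn, a splicing protein gene of the same cluster, moved the other way. It read 0.98, 1.07 and 1.01 in Cdx1+/+ and 1.37, 1.48 and 1.48 in Cdx1-/-, again without overlap. Its difference was 0.43 (SE 0.08, n = 3 per genotype, limma adjusted p = 0.0222), and another detected Snrpn probe gave 0.48. The mean over the detected Snrpn probes, which takes in a dim one, gave 0.28 and did not pass (limma adjusted p = 0.234).

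The other 4 genes tested in this cluster did not pass: the MAGE gene Ndn, the makorin gene Mkrn3, the ubiquitin ligase gene Ube3a and Peg12. For Peg12 the 2 probes disagreed, since the brighter gave 0.28 and the dimmer, detected on all Cdx1+/+ arrays and no Cdx1-/- array, was at least 1.35-fold lower in Cdx1-/- (limma adjusted p = 0.0423, fitted probe by probe).

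Kcnq1, a voltage-gated potassium channel subunit, rose. It read 1.58, 1.37 and 1.48 in Cdx1+/+ and 1.83, 1.88 and 1.82 in Cdx1-/-, with no overlap and a difference of 0.37 (SE 0.09, n = 3 per genotype, limma adjusted p = 0.0428). A further probe for Kcnq1, which overlaps most of the same bases, gave 0.25. None of the other 6 genes of the Kcnq1 cluster passed. Phlda2, which restrains placental growth, came closest, with -3.67, -3.98 and -3.51 in Cdx1+/+ and -5.04, -4.58 and -4.19 in Cdx1-/-. Only 1 of the Cdx1-/- arrays detected it, and the difference of -0.89 had a limma adjusted p of 0.0509. It passed with the replicate block (limma adjusted p = 0.0444).

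**Figure D3:**
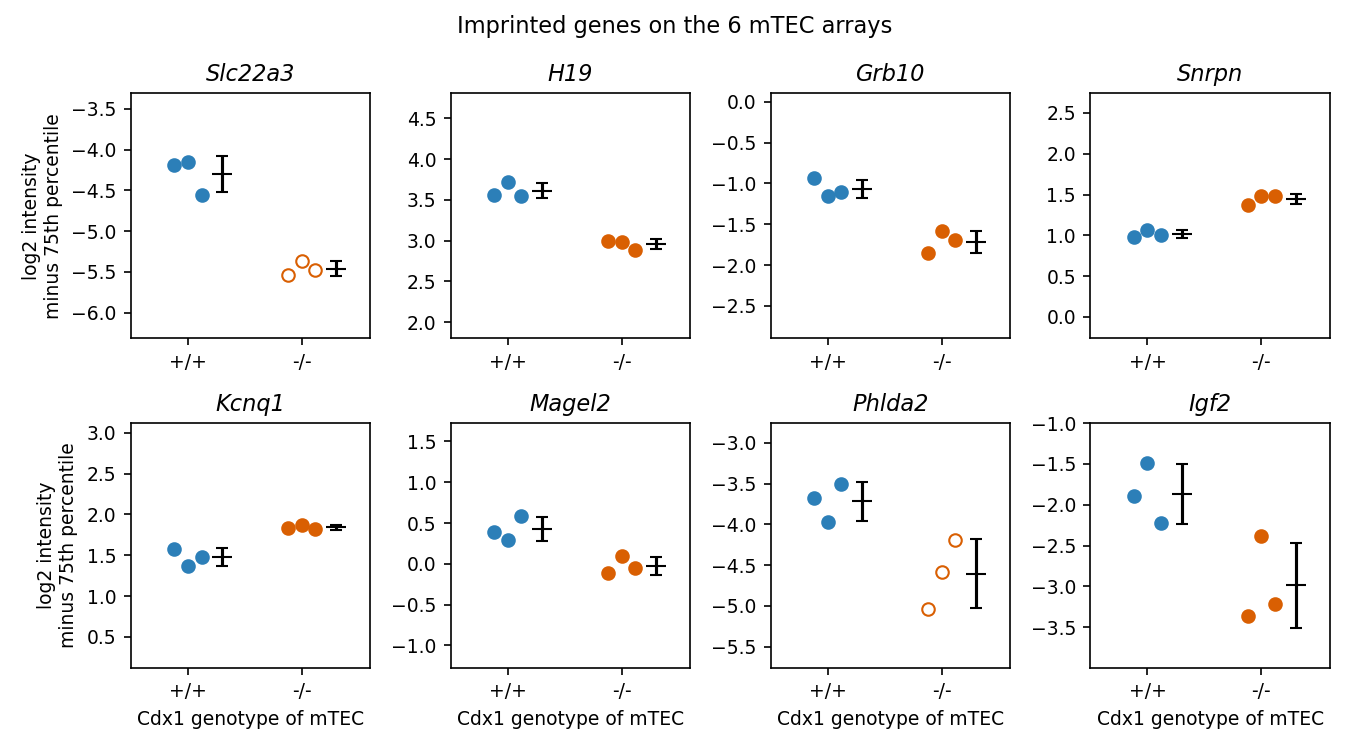
Levels of the 6 genes that passed the test between genotypes and of Phlda2 and Igf2, which missed it, on each of the 6 mTEC arrays (log2 intensity minus the array's 75th percentile). Points are arrays, bars give the mean and SD of 3 arrays, open symbols mark groups in which not every array detected the probe, and each panel spans 3 log2 units. The genotypes do not overlap in any of the 8 panels.

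The 6 calls were not equally firm. H19 and Grb10 passed under all 15 alternative analyses. Slc22a3 passed under 14, but it was detected in Cdx1+/+ alone, so a call could hardly have been other than lower. The alternative under which it did not pass was normexp background correction, so its call rests on how signals at background are treated. The 15 are not all distinct: slide 1 alone and leaving out Cdx1-/- replicate 1 use the same arrays. For Grb10, Slc22a3 and Magel2, each read by a single probe, the mean of detected probes also repeats the main values. Snrpn passed under 9, Magel2 under 4 and Kcnq1 under 2. Magel2 and Kcnq1 lost the call without any single array of the 6 and also with the replicate block (limma adjusted p = 0.0646 and 0.0585). Snrpn lost it without Cdx1+/+ replicate 1 or 3 or Cdx1-/- replicate 2 or 3 (limma adjusted p = 0.0652 to 0.0733). On slide 1, which holds all arrays of the comparison but Cdx1-/- replicate 1, H19 gave -0.67, Grb10 -0.58, Slc22a3 -1.12 and Snrpn 0.46, all passing, while Kcnq1 (limma adjusted p = 0.0862) and Magel2 (0.103) did not.

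Plagl1, Cdkn1c, Dlk1 and Dcn, each detected on every mTEC array, did not pass. Plagl1, a zinc finger transcription factor, stood at 6.20 ± 0.17 (SD, n = 3) in Cdx1+/+ and 6.11 ± 0.13 in Cdx1-/-. Another Plagl1 probe gave -0.34 (limma adjusted p = 0.0710, fitted probe by probe). Cdkn1c, the cyclin-dependent kinase inhibitor, stood at 5.54 ± 0.08 and 5.55 ± 0.04, with a 95% interval of the difference from -0.19 to 0.21. For the proteoglycan gene Dcn the interval ran from -0.32 to 0.31.

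Dlk1, a membrane ligand related to the Notch ligands, read 4.38, 4.40 and 4.42 in Cdx1+/+ and 4.25, 4.32 and 4.30 in Cdx1-/-. These arrays did not overlap, and the interval of the difference ran from -0.29 to 0.07. A dimmer Dlk1 probe gave -0.33 (limma adjusted p = 0.0786, fitted probe by probe). Of the intervals of these 4 genes, only that of Plagl1 (-0.372 to 0.205) takes in a change of -0.33. Those of Dlk1, Cdkn1c and Dcn leave room for smaller changes.

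Gnas and Nap1l5 each gave a lower signal that missed the threshold. Gnas read 5.00 ± 0.06 (SD, n = 3) in Cdx1+/+ and 4.79 ± 0.08 in Cdx1-/- without overlap, a difference of -0.21 (limma adjusted p = 0.150). Another Gnas probe, at chr2:174122337-174122396 (mm9), was detected on all Cdx1+/+ arrays and no Cdx1-/- array, at least 1.30-fold lower in Cdx1-/-, with an adjusted p of 0.129 when fitted by limma probe by probe. Nap1l5 was detected on 2 Cdx1+/+ arrays and no Cdx1-/- array, at least 1.22-fold lower (limma adjusted p = 0.149).

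Markers of cell types other than mTEC were read on the same arrays. The sort for Epcam+ CD45- cells is set to leave out mesenchyme and endothelium, which lack Epcam, and blood cells, which carry CD45. Of 11 mesenchyme markers 10 were tested, and Pdgfrb (-0.78) and Thy1 (-0.59) fell. By limma none of the 10 rose. At an unadjusted p under 0.05 in limma 1 was higher, Col1a2 (0.29), and 3 were lower. The summed mesenchyme level was 5.83 to 5.95 in Cdx1+/+ and 5.43 to 5.62 in Cdx1-/-. The largest part of this sum came from Thy1, the brightest of the markers (mean 4.92 in Cdx1+/+ and 4.34 in Cdx1-/-). The lower sum therefore cannot be read as a fall of the mesenchyme markers as a group. On each mTEC array 9 to 10 of the 11 were detected, and Pdgfra was detected on no array. Endothelial markers summed to 3.27 to 3.55 and 3.43 to 3.68, with Emcn undetected. Vwf (0.35), the brightest of them, was the 1 of 7 to pass. At an unadjusted p under 0.05 in limma, 2 of the 7 were higher and 2 lower, the latter Cdh5 (-0.44) and Cldn5 (-0.56). Of 8 dendritic cell and macrophage markers, Mrc1 fell (-1.42) and Lyz2 rose (0.93), with sums of 6.73 to 6.98 in Cdx1+/+ and 6.34 to 6.85 in Cdx1-/-. Of 4 B cell markers Cd79b rose (0.56), with sums of 3.38 to 3.55 and 3.81 to 3.96. At an unadjusted p under 0.05 in limma, 1 B cell marker was higher and 3 were lower. Of 9 thymocyte markers Ptcra fell (-0.48), with sums of 3.93 to 4.50 and 3.91 to 4.24. Of 5 smooth muscle and enteric neuron markers Elavl4 fell (-0.66), and of 6 cortical epithelial markers none passed in limma (0 at an unadjusted p under 0.05). Enterocyte and enteroendocrine markers, which mTEC also transcribe, fell for 7 of 9 and 3 of 5. The part of these cells in the lower H19, Grb10 and Slc22a3 was not tested. In such bulk samples, fewer cells of a type and less RNA per cell cannot be told apart.

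To show start sites of genes that fell, the 250 bases upstream of the RefSeq starts of Slc22a3, Grb10 and Magel2 (build GRCm38.p6) follow, 5′ to 3′ on the strand of the gene. No such window was available for H19, which also fell. Capitals mark TTTAT on either strand (ATAAA when reversed), the core of the Cdx binding motif TTTATG.
Slc22a3, chr17:12507705-12507954, minus strand: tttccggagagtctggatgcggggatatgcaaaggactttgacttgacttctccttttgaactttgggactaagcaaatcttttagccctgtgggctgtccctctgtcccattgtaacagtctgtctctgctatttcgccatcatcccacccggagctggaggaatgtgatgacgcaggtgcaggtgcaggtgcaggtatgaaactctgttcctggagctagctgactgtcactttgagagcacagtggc
Grb10, chr11:12027972-12028221, minus strand: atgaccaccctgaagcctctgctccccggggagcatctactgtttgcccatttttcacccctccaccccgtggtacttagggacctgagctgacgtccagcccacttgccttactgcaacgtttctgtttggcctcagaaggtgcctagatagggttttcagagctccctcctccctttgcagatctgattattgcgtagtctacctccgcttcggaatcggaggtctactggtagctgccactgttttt
Grb10, chr11:12037421-12037670, minus strand: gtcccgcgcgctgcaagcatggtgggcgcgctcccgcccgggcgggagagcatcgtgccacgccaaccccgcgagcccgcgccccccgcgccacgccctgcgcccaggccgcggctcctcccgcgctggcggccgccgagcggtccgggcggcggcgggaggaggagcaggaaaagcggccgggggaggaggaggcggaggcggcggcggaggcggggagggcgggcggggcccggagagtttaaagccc
Magel2, chr7:62376729-62376978, plus strand: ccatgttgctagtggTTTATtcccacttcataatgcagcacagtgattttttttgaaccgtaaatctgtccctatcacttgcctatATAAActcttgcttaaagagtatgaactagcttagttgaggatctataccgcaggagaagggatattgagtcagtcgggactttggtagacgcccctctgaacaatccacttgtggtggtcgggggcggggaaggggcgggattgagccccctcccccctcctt

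The Slc22a3 and both Grb10 windows held no TTTAT, and the Magel2 window held 2. Of all 32851 windows of this length that RefSeq gave, 37.3% held TTTAT and 10.8% the longer TTTATG. Among 47 windows that matched 31 of the members, 22 held TTTAT (46.8%) and 8 held TTTATG. CG pairs, the substrate of DNA methylation, numbered 40 in the upstream Grb10 window, 8 in the downstream one, 5 at Slc22a3 and 7 at Magel2, against a median of 6 over all windows. These counts describe the letters in the window only.

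Other imprinted genes, from a list of 37 outside the members, also changed in both directions. Of 32 tested, 5 rose and 7 fell, or 37.5% in all against 13% of all genes, and the median difference was 0.01. The list was not chosen independently of these data, and its share was not tested. The largest increases by p were of Osbpl5 (0.85), an oxysterol-binding protein gene, Copg2 (0.54), a coat protein gene, and the paraoxonases Pon3 (0.69) and Pon2 (0.46). The decreases were led by the calcitonin receptor gene Calcr (-0.70), the homeobox gene Dlx5 (-0.67), Zdbf2 (-0.97) and the tyrosine hydroxylase gene Th (-0.70).

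Among genes that set or keep the imprint 9.52% passed, and among IGF pathway genes 6.25%, against 13% of all genes. Of 21 such genes, all tested with limma, none rose (0 also at an unadjusted p under 0.05) and 2 fell (5 at an unadjusted p under 0.05), the CTCF paralog Ctcfl (-1.20, SE 0.14, limma adjusted p = 0.00569) and the methylcytosine dioxygenase Tet2 (-0.44, limma adjusted p = 0.0494). Of 16 IGF pathway genes tested with limma, none rose (0 at an unadjusted p under 0.05, where 5 were lower). Igfbp6, a binding protein that prefers IGF2, was the sole one of the 16 to pass, and it fell by 0.56 (limma adjusted p = 0.0182). The IGF receptor gene Igf1r gave 0.21 (SE 0.12) and did not pass.

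Between the tissues most imprinted genes differed, in both directions. In a fit to all 8 arrays with an additive genotype term, 23 of the 36 genes tested were higher in mTEC, 9 were lower and 4 did not pass. Over all 25273 genes 84.1% passed, 33.9% higher and 50.2% lower in mTEC, against 88.9% of the 36. The median difference of the 36 was 1.27 on the log2 scale, against -0.46 over all genes. By fitted differences 10 members were 8-fold or more higher and 5 lower in mTEC, where 13.5% and 5.07% of all genes were, and 5 of the 10 were undetected in SIEC.

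These counts mix genes measured in both tissues with genes measured in mTEC alone. For 17 of the 36 the probe used was detected on both SIEC arrays, and of these 8 were higher and 9 lower in mTEC (47.1% and 52.9%). Of all genes so detected 16.5% were higher and 68.8% lower. Another 16 were detected on no SIEC array with the probe used. They entered the test only through their signal in mTEC, so the 12 called among them could hardly have been other than higher, as 81.2% of all such genes were, with 2.36% lower. The last 3 were detected on a single SIEC array. Of the 19 members with any probe detected on both SIEC arrays, Plagl1 and Peg12 were read here on another, brighter probe.

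Among the genes detected on both SIEC arrays, 5 of 6 paternally expressed genes were higher in mTEC and 1 was lower, while 3 of 10 maternally expressed genes were higher and 7 lower. The difference between the parental groups was not tested. Over all tested members, including those without SIEC detection, 16 of 19 paternally expressed genes were higher and 1 lower, and 5 of 14 maternally expressed genes were higher and 7 lower. Detection was uneven, since 11 of the 19 and 3 of the 14 were detected on no SIEC array, with 9 and 1 of them called higher. These counts over all members therefore cannot be read as a difference between the parental groups.

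Both SIEC arrays lay on slide 2 with a single mTEC array, Cdx1-/- replicate 1, and the other 5 mTEC arrays on slide 1. With slide as a block, which rests on that array, 22 members were higher and 9 lower. Within slide 2, an alternative chosen after seeing the data and without a test, all 32 called members kept their sign, at 0.588 to 1.29 times the difference over both slides.

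**Figure D4:**
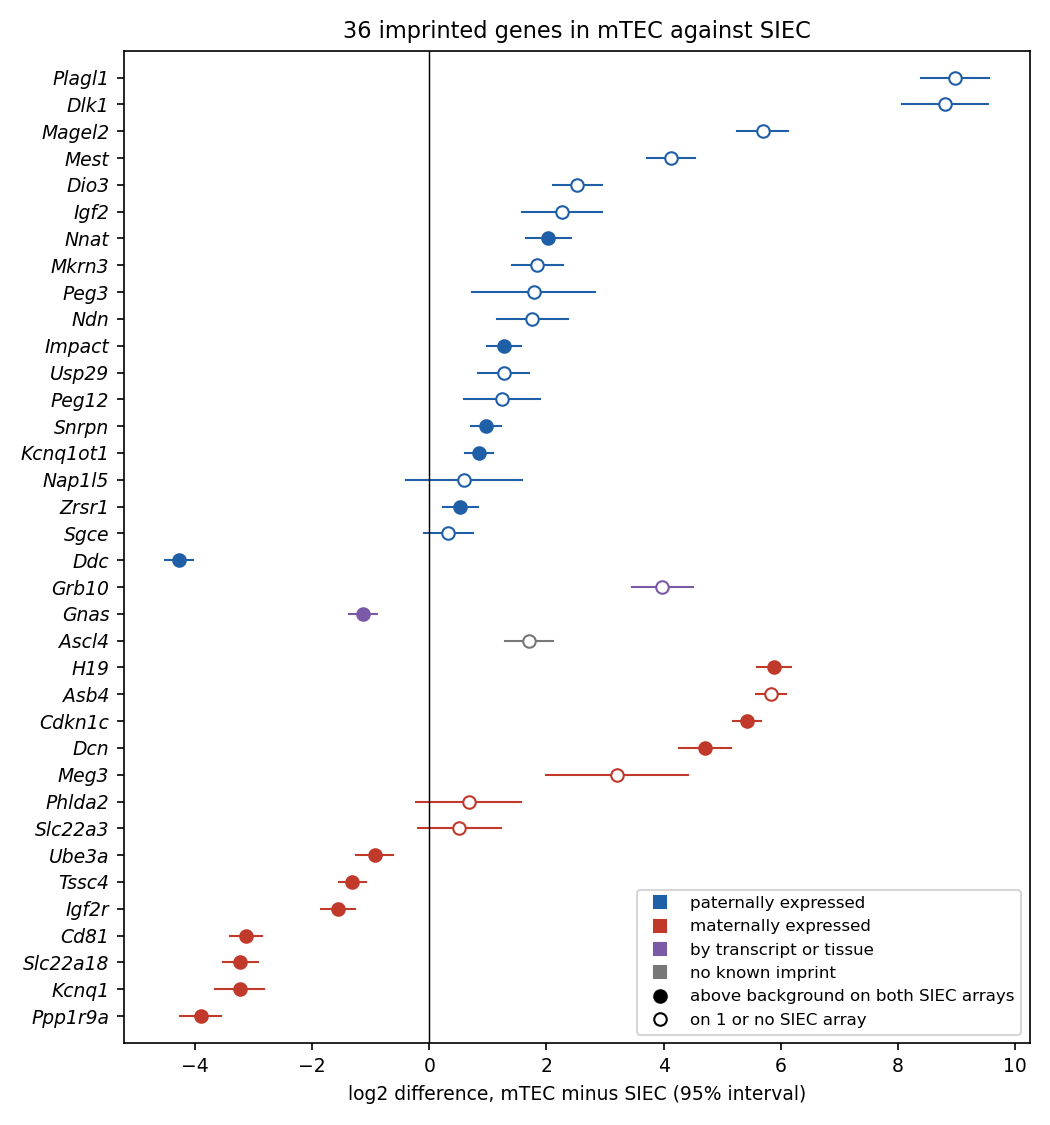
Differences of the 36 imprinted genes between mTEC (6 arrays) and SIEC (2 arrays) on the log2 scale, with 95% intervals from limma, grouped and coloured by the parental copy usually expressed. Open points were detected on 1 SIEC array or none, so their fitted size has no firm lower side. Ddc is the sole paternally expressed gene to the left of 0 that passed, while 7 of the 14 maternally expressed genes lie there. Of the 19 paternally expressed genes 11, and of the 14 maternally expressed genes 3, were detected on no SIEC array.

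In the Dlk1-Meg3 cluster all 3 genes detected were higher in mTEC. Dlk1 ran from 4.25 to 4.42 over the mTEC arrays (median 4.35), against -5.21 and -3.70 in SIEC, where it was not detected. On this probe Dlk1 was at least 235-fold higher in mTEC (limma adjusted p = 1.11e-07). On a dimmer Dlk1 probe, also undetected in SIEC, the bound was 27.6-fold. Meg3, the maternally expressed noncoding RNA, ran from 0.73 to 1.21 (median 1.13) and read -3.39 in the SIEC sample labelled Cdx1+/+ and -0.90 in that labelled Cdx1-/-, the only SIEC sample with detection. Its fitted difference was 3.20 (SE 0.52, limma adjusted p = 0.000601). Dio3, the deiodinase that inactivates thyroid hormone, ran from -3.38 to -2.79 in mTEC (median -3.25), read -5.89 and -5.55 in SIEC without detection, and was at least 1.26-fold higher in mTEC.

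In the Igf2-H19 cluster both genes were higher in mTEC. H19 ran from 2.89 to 3.72 in mTEC (median 3.27) and read -2.47 and -2.74 in SIEC, detected on both arrays, with a difference of 5.89 (SE 0.12, limma adjusted p = 1.00e-08). Igf2 ran from -3.36 to -1.49 (median -2.31) and was not detected in SIEC, at least 2.15-fold higher in mTEC (limma adjusted p = 0.000174). The receptor gene Igf2r went the other way, from 1.22 to 1.62 in mTEC against 2.99 and 3.04 in SIEC, a difference of -1.56 (SE 0.13).

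The Kcnq1 cluster was split. Cdkn1c ran from 5.46 to 5.62 in mTEC and read 0.20 and 0.03 in SIEC, a difference of 5.43 (SE 0.10, limma adjusted p = 7.14e-09). Kcnq1ot1, the paternal noncoding RNA that silences the cluster in cis, was also higher in mTEC, by 0.85 (SE 0.10). Another 4 neighbours were lower in mTEC, each detected on every array. Kcnq1 differed by -3.24, the transporter gene Slc22a18 by -3.23, the tetraspanin gene Cd81 by -3.13 and Tssc4 by -1.31. Within 1 cluster the maternally expressed genes thus lay on opposite sides, with Phlda2, which read -5.24 and -4.43 in SIEC without detection, not passing.

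In the Snrpn cluster the paternally expressed Magel2, Ndn, Mkrn3 and Snrpn were higher in mTEC, Mkrn3 not under normexp background correction (-0.30), and the maternally expressed Ube3a was lower (-0.93, SE 0.14). Magel2 ran from -0.11 to 0.58 in mTEC (median 0.20), read -5.65 and -5.32 in SIEC without detection, and was at least 13.3-fold higher (limma adjusted p = 7.26e-08). Ndn, detected on 1 SIEC array, differed by 1.76 (SE 0.26), and Snrpn, detected on all arrays, by 0.96 (SE 0.11). Another Snrpn probe detected on all arrays gave 0.22 and did not pass (limma adjusted p = 0.0637, fitted probe by probe). Mkrn3 ran from -3.78 to -3.21 in mTEC (median -3.34), read -5.46 and -5.05 in SIEC without detection, and was at least 1.09-fold higher. The 2 Peg12 probes gave opposite signs. The probe used was dim in mTEC, from -4.03 to -3.11 (median -3.62), and undetected in SIEC, and gave a fitted difference of 1.25. The other probe, detected on both SIEC arrays at -1.96 and -2.36, gave -2.44. No direction is therefore given for Peg12, although the probe used puts it among the 23 higher in mTEC.

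The Peg10-Sgce cluster was also divided. Asb4, a substrate adaptor of a ubiquitin ligase, ran from 0.47 to 0.85 in mTEC (median 0.70) and was not detected in SIEC, at least 18.6-fold higher in mTEC (limma adjusted p = 6.51e-09). A dimmer Asb4 probe, also undetected in SIEC, gave 0.38 and did not pass (limma adjusted p = 0.523, fitted probe by probe). Ppp1r9a, which encodes the actin-binding protein neurabin, ran from -1.60 to -1.10 in mTEC against 2.66 and 2.58 in SIEC, a difference of -3.90 (SE 0.15). Sgce, the epsilon sarcoglycan gene, ran from -3.76 to -2.93 in mTEC (median -3.21), read -3.77 and -3.42 in SIEC without detection and did not pass.

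Plagl1 had the largest fitted difference of the 36. It ran from 6.00 to 6.39 in mTEC (median 6.10) and read -2.20 and -3.43 in SIEC, detected on 1 of the arrays, a difference of 8.97 (SE 0.25, limma adjusted p = 3.29e-08). Another Plagl1 probe near the 3′ end gave 9.11, but 2 probes further 5′, detected on every array, gave 1.43 and 1.69. All 4 were higher in mTEC, and the size thus depended on which stretch of the gene was read.

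Grb10 ran from -1.86 to -0.94 in mTEC (median -1.37), was not detected in SIEC and was at least 4.41-fold higher in mTEC (limma adjusted p = 1.30e-06). Its neighbour Ddc was lower in mTEC, 1.19 to 1.47 against 5.52 and 5.63, a difference of -4.28 (SE 0.10, limma adjusted p = 1.56e-08). Mest, a gene for a hydrolase-like protein, ran from -1.57 to -0.84 (median -1.31), was not detected in SIEC and was at least 4.85-fold higher in mTEC. A dimmer Mest probe gave a bound of 2.61-fold. Dcn ran from 3.70 to 4.09 in mTEC and read -1.18 and -0.47 in SIEC, a difference of 4.70 (SE 0.19).

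The remaining members had smaller differences. Nnat, which encodes neuronatin, differed by 2.03, Impact, a translational regulator, by 1.28, and Zrsr1, related to a splicing factor, by 0.53. Gnas, which encodes the stimulatory G protein subunit, was lower in mTEC, by -1.13. Zrsr1 did not pass with the Cdx1+/+ arrays alone (0.28, limma adjusted p = 0.0977).

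Another 5 members were near background in mTEC and undetected in SIEC. Peg3, a zinc finger gene, ran from -3.62 to -2.41 in mTEC (median -3.08), read -5.67 and -3.98 in SIEC and was at least 1.40-fold higher in mTEC. Peg3 did not pass without the SIEC array labelled Cdx1+/+ (0.71, limma adjusted p = 0.0709) or with slide as a block (1.06, limma adjusted p = 0.187). Ascl4 ran from -3.39 to -2.32 (median -2.73), read -4.39 and -4.57 in SIEC and was at least 1.68-fold higher in mTEC.

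The deubiquitinase gene Usp29, detected on 4 mTEC arrays, ran from -4.62 to -3.93 (median -4.25) and read -5.73 and -5.34 in SIEC. It passed as higher in mTEC, but the dimmest detected signals set no bound above 1. Nap1l5, a nucleosome assembly protein family gene detected on 2 mTEC arrays, ran from -5.54 to -3.61 (median -5.02) and read -5.53 and -5.13 in SIEC. Slc22a3 read -5.56 and -5.24 in SIEC, and neither of these passed.

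The background correction changed the result for weak genes. With normexp background correction 16 members were higher and 14 lower in mTEC, and the share of higher among all genes called went from 40.3% to 29.0%. Ascl4, Peg3, Mkrn3, Peg12 and Usp29 then turned negative and Igf2 and Dio3 no longer passed. Each of those 7 was detected on no SIEC array with the probe used. All bounds given hold for the subtracted background. With normexp the differences of Dlk1 (6.06), Asb4 (2.68), Magel2 (2.33), Grb10 (1.14) and Mest (1.10) still passed but lay under their bounds. Quantile scaling moved the median difference of all genes by 0.37 and the authors' deposited scaling by -0.44. Under the former Gnas (-0.14) and under the latter Zrsr1 (0.09) lost the call, with no change of sign among the 32 called members under either.

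Mesenchyme markers moved with tissue as well. All 10 tested were higher in mTEC, with summed levels of 5.43 to 5.95 over the mTEC arrays against 1.25 and 2.27 in SIEC. Thy1 was the brightest of them in both tissues (mean 4.63 in mTEC and 1.17 in SIEC) and weighs most in these sums. Pdgfra was not detected in either tissue. The Epcam+ UEA1+ sort is set to leave such cells out. Their part in the higher Dcn, Dlk1, H19 and Igf2 of mTEC was not tested. The SIEC array labelled Cdx1-/- detected 7 of the 11 mesenchyme markers and the array labelled Cdx1+/+ 3.

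Shares of other gene lists are set against 33.9% higher and 50.2% lower over all genes. Of the machinery of imprinting, 8 of 21 genes (38.1%) were higher and 11 (52.4%) lower in mTEC. Dnmt3l, the cofactor of germ-line DNA methylation, differed by 6.57 and was detected on 1 SIEC array. Ctcfl and Dppa3, a protein that guards methylation in the early embryo, were at least 29.4-fold and 26.8-fold higher. The maintenance methyltransferase gene Dnmt1 (-1.58) and Smchd1 (-1.43) were lower. Of 16 IGF pathway genes 12 (75%) were higher in mTEC and 2 (12.5%) lower. The higher were led by Igf1, at least 200-fold higher, and the binding protein gene Igfbp1, at least 38.7-fold. Igf2bp2 (-3.35) and Igfbp4 (-0.87) were lower. Of 33 other imprinted genes tested, 15 (45.5%) were higher, among them Mirg of the Dlk1-Meg3 cluster (at least 17.6-fold), and 11 (33.3%) were lower, led by Ascl2 (-2.55), the intestinal stem cell factor.

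The pair of SIEC arrays gives values without a test or replicate. Of 21 members with any probe detected on at least 1 of them, read on the brightest such probe, 2 were at least 2-fold higher on the array labelled Cdx1-/-, Meg3 by 2.49 and Ndn by 1.33 on the log2 scale, and 0 were lower, where 5.68% of all genes passed that fold upwards, 3.55% downwards and 9.23% in either direction. Each of the 2 genes was detected only on the array labelled Cdx1-/-. The median difference of the 21 was -0.06, against -0.05 over all genes. H19 differed by -0.27 and Kcnq1 by -0.45 between these arrays. The genotype contrast differed between the tissues, by the interaction term in limma, for 8 of 36 members as labelled and for 5 with the SIEC labels turned, where 14.4% and 10.2% of all genes did.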

How the data were processed

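RNA of 8 pooled samples was read on 1-colour (Cy3) Agilent arrays, 1 per sample. The deposited scanner files give linear intensity values, which the authors made with Agilent Feature Extraction 10.7.3.1, background-subtracted within each array, per the file headers. In the deposited normalized table each column was linear, had a median of 1 and equalled the array's processed signal up to a scale factor, whose basis the sources used here do not give. Positions of probes are on build mm9, per the file headers. The exon or intron of each probe was not analysed here.

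From these, log2 intensities minus the 75th percentile of the array were computed, without spots called outliers. A gene is its brightest probe detected on at least 2 arrays of a group, or on the array of a group of 1. Fits used limma 3.58.1 (lmFit, eBayes) in R 4.3.3 with version 1.17.8 of data.table, over all genes, 2-sided, with Benjamini-Hochberg adjustment and a threshold of 0.05. pandas 2.3.3 and matplotlib 3.10.9 made tables and plots. The few arrays limit the precision.

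Bounds ("at least") compare the mean of the brighter group with a floor for each array of the dimmer one, namely the lowest signal of any detected probe or the probe itself, whichever was higher. Same-numbered mTEC samples deviated together (correlations of 0.32, 0.15 and 0.15), so the replicate number was taken to pair the samples. It was fitted as a block in an alternative analysis only. The main test between genotypes had no block and left this pairing out. In simulated data for 24338 genes, 62% of 100 planted changes of 1 log2 unit and 5% of 100 of 0.5 were recovered in the mTEC design. In the data 3170 genes passed, far more than were planted, so the adjustment was stricter in the simulation. Its shares therefore do not give the recovery in the data. Every member is accounted for, with values per array or as a range where it passed the test between genotypes or was detected in a single tissue, and up to 4 genes per direction of the other lists by smallest p. Members, lists and comparisons were chosen with earlier results of these data known. Promoter sequences are RefSeq's. Summed marker levels are the log2 of summed linear intensities.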

Additional observations from a re-analysis of the deposited data

Results flagged for a closer look

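The genotype contrast differed between the tissues for 8 of the 36 imprinted genes, by the interaction term of a limma fit to all 8 arrays (adjusted p under 0.05), against 14.4% of all genes tested. The 8 are 22.2% of the members. With the SIEC labels turned, 5 members (13.9%) differed, against 10.2% of all genes. Meg3, Dlk1, Plagl1 and Ndn were called in both orientations, and H19 (0.92, limma adjusted p = 0.0248) only with the labels turned. With 1 SIEC array per label, the SIEC side of each contrast has no replicate of its own and borrows its spread from mTEC, and the SIEC labels went against the Cdx1 signal. Both forms of the test were chosen after seeing the data.

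As labelled, the SIEC contrast minus the mTEC contrast was 2.73 on the log2 scale for Meg3, 1.18 for Ndn and -1.15 for Plagl1, each detected on 1 SIEC array with the probe used. On the 2 Plagl1 probes detected on both SIEC arrays, these arrays differed by -0.12 and -0.32, against -1.24 on the probe used. It was 1.63 for Dlk1, 1.48 for Slc22a3, 2.15 for Peg3 and 1.03 for Grb10, none of them detected on a SIEC array, so these 4 differences rest on signals at background. For Kcnq1, the only one of the 8 whose probe used was detected on both SIEC arrays, it was -0.81 (limma adjusted p = 0.0310), with 0.37 in mTEC and -0.45 in SIEC as labelled. With the labels turned Kcnq1 had 0.45 in SIEC, and the difference was 0.08 (limma adjusted p = 0.836).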

How the results depend on the processing

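In mTEC, 2 members rose and 4 fell. Of the counts under alternatives, normexp gave 1 higher and 2 lower, quantile scaling 2 and 6, the deposited values 1 and 6, a strict filter 2 and 7, no filter 0 and 3, the mean of probes 0 and 4, slide as a block or slide 1 alone 1 and 3. With the replicate block there were 1 and 5, with Igf2 and Phlda2 passing and Kcnq1 and Magel2 not; the block changed no other call of a member named here. Leaving out 1 array gave 0 to 1 higher and 3 to 4 lower. Where limma gave 0 higher, 2 or 3 members were higher at an unadjusted p under 0.05. The median went from -0.084 to -0.029 without a filter. Differences near 0 changed sign: Cdkn1c to -0.007 with normexp (-0.031 to 0.053 without 1 array), Dcn to 0.001 with the deposited values and 0.081 on slide 1 or with slide as a block (-0.077 to 0.097 without 1 array), and Plagl1 between -0.155 and 0.015 without 1 array.

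Between tissues 23 members were higher and 9 lower in mTEC, and 14 lower with normexp. The median of 1.27 went to -0.058 with normexp, 1.55 with quantile scaling, 0.83 with the deposited values, 1.49 with a strict filter and 1.44 with Cdx1+/+ arrays alone (1.18 to 1.44 without 1 array). With normexp Ascl4 turned to -0.14, Peg3 to -0.21, Mkrn3 to -0.30, Peg12 to -0.46 and Usp29 to -0.43. Peg12 was -0.60 as the mean of probes, -2.19 with Cdx1+/+ arrays alone and between -2.48 and 1.79 without 1 array, as its other probe was then the brightest. With the SIEC labels turned, no tissue call of a member was lost, and the genotype contrast differed between tissues for 5 members, not 8. In the SIEC pair 1 member, not 2, passed 2-fold higher with normexp. The cause of the other changes was not tested. The few arrays, dim SIEC signals and 1 SIEC array per label limit what can be seen.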
